A study of Mus musculus with 2 samples.

Results

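Mast cells and basophils are the cells that carry IgE on their surface and release histamine and proteases when it is crosslinked, and 9 genes of their granules and receptors are described here in bone marrow of mice labelled as lacking Dnmt2. The genes were chosen by name. Kit encodes the receptor for stem cell factor, Fcer1a and Ms4a2 encode the alpha and beta chains of the IgE receptor, and Hdc encodes histidine decarboxylase, which makes histamine. Cpa3, Mcpt4, Mcpt8, Cma1 and Prss34 encode granule proteases. All probes that the platform annotation gives one of these symbols were used, which came to 16 probes for the 9 genes, out of 45281 probes and 19057 named genes on the array. The samples were femoral bone marrow labelled Dnmt2-/- and femoral bone marrow labelled wild type, each from mice aged 8 days and each measured on 1 Illumina bead array (MouseWG-6 v2.0). Dnmt2, with the gene symbol Trdmt1, is an enzyme that methylates cytosine in certain transfer RNAs. The labels give no strain, no design of the mutant allele and no number of animals behind either RNA.

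Since each genotype had a single array, no difference has a replicate, a test or an error, and sizes describe these 2 arrays. Between 41.4% and 43.2% of all probes were detected on each array at a detection p-value below 0.01, and the number of arrays limits the precision. Ratios are log2 ratios, Dnmt2-/- label over wild type label, after background correction and quantile normalization. Trdmt1 did not check the labels, which name the samples throughout: its brightest probe was not lower under the Dnmt2-/- label. It had 148.8 intensity units in marrow labelled Dnmt2-/- and 112.4 in marrow labelled wild type, and the place of its probes relative to the mutation is not stated in the labels. The arrays also differed in sex-linked RNA. The brightest Xist probe had 92.8 intensity units in marrow labelled Dnmt2-/-, not detected, and 822.7 in marrow labelled wild type, and Y-linked Eif2s3y had 466.8 in marrow labelled Dnmt2-/- and 89.8, not detected, in marrow labelled wild type. Genotype label and this difference cannot be told apart in any value below.

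Mast cells and basophils both arise in the marrow from Kit-expressing progenitors. Mast cell precursors leave early, keep Kit and fill their granules in the tissues with chymases, tryptases and carboxypeptidase A3, whereas basophils complete their maturation in the marrow and, in the mouse, make Mcpt8 and Prss34. GATA2 is a transcription factor of both lineages, with GATA1 acting beside it in mast cells, and both proteins bind DNA at GATA. The start site regions of the 3 members with the highest ratios, Mcpt4, Kit and Cpa3, and of the member with the lowest, Hdc, are shown as RefSeq gives them on GRCm38.p6, from 250 bases before to 50 bases after the start, read 5′ to 3′ along the gene, with each GATAA on either strand in capitals. The array annotation names no build.
Mcpt4, chr14:56062261-56062560, minus strand: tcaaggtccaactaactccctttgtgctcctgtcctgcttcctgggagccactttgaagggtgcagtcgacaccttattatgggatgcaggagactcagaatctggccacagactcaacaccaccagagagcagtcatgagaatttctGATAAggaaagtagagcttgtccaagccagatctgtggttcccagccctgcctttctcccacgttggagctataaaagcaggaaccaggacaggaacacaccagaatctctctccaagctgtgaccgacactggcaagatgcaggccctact
Kit, chr5:75574737-75575036, plus strand: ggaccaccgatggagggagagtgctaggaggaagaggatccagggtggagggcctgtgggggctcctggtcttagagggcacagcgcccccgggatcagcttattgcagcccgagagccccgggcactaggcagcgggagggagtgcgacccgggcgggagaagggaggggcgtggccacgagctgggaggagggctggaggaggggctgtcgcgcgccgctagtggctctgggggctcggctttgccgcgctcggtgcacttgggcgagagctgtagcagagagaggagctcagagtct
Cpa3, chr3:20242132-20242431, minus strand: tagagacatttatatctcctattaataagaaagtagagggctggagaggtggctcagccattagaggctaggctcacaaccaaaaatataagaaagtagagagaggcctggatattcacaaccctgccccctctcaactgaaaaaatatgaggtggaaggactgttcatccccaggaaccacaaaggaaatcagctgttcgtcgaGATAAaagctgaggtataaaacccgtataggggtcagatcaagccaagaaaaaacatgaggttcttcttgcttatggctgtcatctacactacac
Hdc, chr2:126618629-126618928, minus strand: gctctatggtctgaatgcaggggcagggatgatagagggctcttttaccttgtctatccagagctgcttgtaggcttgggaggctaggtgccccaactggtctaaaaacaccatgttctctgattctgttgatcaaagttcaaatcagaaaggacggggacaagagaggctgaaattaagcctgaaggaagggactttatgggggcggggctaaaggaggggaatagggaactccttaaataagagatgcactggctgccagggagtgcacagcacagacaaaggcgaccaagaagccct
GATAA stood at -102 from the start in Mcpt4 and at -45 in Cpa3, counted to the first base of the match, and no GATAA or TTATC was in the Kit and Hdc windows. Of the 9 members, 6 had a match in a window, the others of these being Cma1, Prss34, Fcer1a and Ms4a2. Of all 32851 RefSeq windows of 300 bases, 25.4% had one. A match is a run of letters and not a measured binding site. Only GATAA counted as a match, and the Hdc window does hold the shorter GATA and, for the other strand, TATC.

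Of the 9 genes, 8 were detected on both arrays and Ms4a2 on neither, with the brightest probe standing for each gene. Among these 8, 5 had a ratio above 0 and 3 below, where 48.3% of all 9746 genes detected on both arrays were above 0. The median ratio of the 8 was 0.13, and that of all 9746 genes was -0.02. The 5th percentile of all genes lay at -0.59 and the 95th at 0.65. Higher by at least 1.5-fold in marrow labelled Dnmt2-/- was 1 member, Mcpt4, beside 6.61% of all genes, and lower by at least 1.5-fold was 1 member, Hdc, beside 5.16% of all genes. Neither reached 2-fold, a size that 1.08% of all genes passed upwards and 0.544% downwards. The members thus did not share 1 direction: Kit, Cpa3 and Mcpt4 were on the high side, Hdc and Mcpt8 on the low side, and Prss34, Fcer1a and Cma1 near 0.

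**Figure D1:**
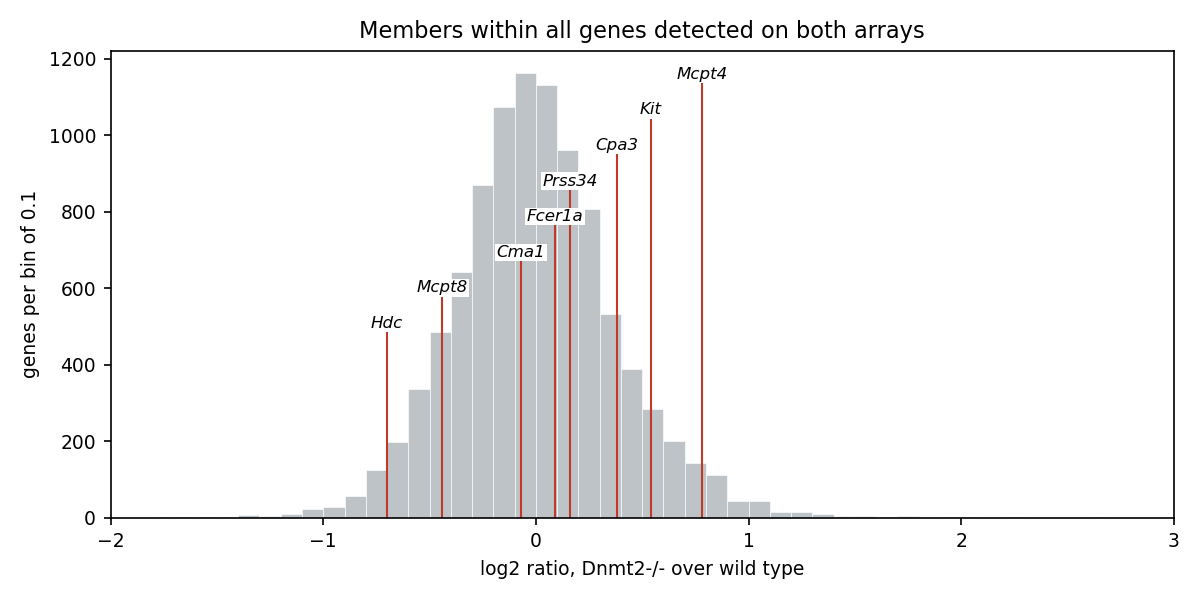
Histogram of the log2 ratio of Dnmt2-/- over wild type for the 9746 genes detected on both arrays, in bins of 0.1, with a line for each of the 8 detected members; the height of a line has no meaning. The members spread from -0.7 for Hdc to 0.78 for Mcpt4.

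Kit, the stem cell factor receptor of mast cells and of blood progenitors, had 975.0 intensity units in marrow labelled Dnmt2-/- and 613.1 in marrow labelled wild type. This is 1.46-fold higher under the Dnmt2-/- label (log2 0.54), and 92.1% of the genes detected on both arrays had a lower ratio. The value comes from the probe annotated to the RefSeq transcript. The 2 other Kit probes, annotated to cDNA clones, were detected on neither array, with signals of 98.1 and 86.7 in marrow labelled Dnmt2-/- and 94.8 and 92.8 in marrow labelled wild type. They lay near the fitted background of 94.9 in marrow labelled Dnmt2-/- and 90.9 in marrow labelled wild type, and give no ratio.

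Cpa3, which encodes the carboxypeptidase stored with chymase in mast cell granules and is also made by basophils, was measured by 3 probes, all detected on both arrays. The brightest had 310.8 in marrow labelled Dnmt2-/- and 217.9 in marrow labelled wild type, 1.31-fold higher (log2 0.38). The second had 323.8 in marrow labelled Dnmt2-/- and 201.5 in marrow labelled wild type (log2 0.64), and the third had 130.1 in marrow labelled Dnmt2-/- and 102.9 in marrow labelled wild type (log2 0.66). All 3 were brighter in marrow labelled Dnmt2-/-. The third lay close to background, and its log2 ratio ran from 0.22 to 0.81 over 6 ways of scaling and background correction. Across 3375 genes with several detected probes, the SD between probes of a gene was 0.29 on the log2 scale, so the 3 Cpa3 probes differed among themselves by less than that SD. That SD compares probes and not animals.

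The chymase genes had signals close to background. Mcpt4, which encodes a chymase of connective tissue mast cells, had 135.3 in marrow labelled Dnmt2-/- and 103.2 in marrow labelled wild type, a ratio of 0.78 (1.71-fold higher) that was the highest among the members. It was also the member that depended most on the processing, with log2 ratios of 0.26 to 0.93 over 6 ways of scaling and background correction. Cma1, another protease of connective tissue mast cells, had 113.9 in marrow labelled Dnmt2-/- and 107.1 in marrow labelled wild type in its brighter probe (log2 -0.07, and 0.06 with median scaling). Its other probe had 120.0 in marrow labelled Dnmt2-/- and 98.0, not detected, in marrow labelled wild type. This was a measured 1.58-fold higher as reported, with log2 ratios of 0.19 to 0.76 over the 6 settings. The 2 Cma1 probes thus gave no common value.

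The proteases Mcpt8 and Prss34 are in the mouse made by basophils more than by mast cells. Mcpt8 had 227.0 in marrow labelled Dnmt2-/- and 234.1 in marrow labelled wild type, a ratio of -0.44 (1.35-fold lower). Its deposited signals were close, and the ratio depended on the processing, from -0.44 to -0.17 over the 6 settings. Prss34 had 914.0 in marrow labelled Dnmt2-/- and 727.8 in marrow labelled wild type (log2 0.16, 1.11-fold higher). The 2 basophil proteases therefore lay on opposite sides of 0, both between the 5th and the 95th percentile of all genes.

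Of the IgE receptor chains, Fcer1a was detected with 118.1 in marrow labelled Dnmt2-/- and 106.8 in marrow labelled wild type (log2 0.09). Its other probe was detected on neither array, with 92.9 in marrow labelled Dnmt2-/- and 87.9 in marrow labelled wild type. The beta chain Ms4a2 had 99.6 in marrow labelled Dnmt2-/- and 97.3 in marrow labelled wild type, with detection p-values of 0.0465 and 0.0357. The alpha and beta chains, the parts of the receptor restricted to few cell types, were thus at or near background on both arrays. The signalling chain Fcer1g, which many myeloid cells share, had 3783.6 in marrow labelled Dnmt2-/- and 4957.7 in marrow labelled wild type (log2 -0.40).

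Hdc was the lowest member. Its brightest probe had 1400.2 in marrow labelled Dnmt2-/- and 2070.5 in marrow labelled wild type, 1.63-fold lower (log2 -0.7), and 2.7% of the genes detected on both arrays had a lower ratio. The second probe had 305.3 in marrow labelled Dnmt2-/- and 371.1 in marrow labelled wild type (log2 -0.68). Both probes were dimmer in marrow labelled Dnmt2-/-, and the brightest stayed between -0.7 and -0.65 over the 6 settings. The second probe ran from -0.68 to -0.46. It was short of 1.5-fold at -0.52 without background correction, -0.46 with median scaling and -0.55 in the authors' processed values. Histidine decarboxylase is also made by other myeloid cells of the marrow. In a list of 11 eosinophil markers, all 6 genes detected on both arrays were below 0, with a median of -0.77, from Prg2 (-0.18), the major basic protein gene, to Alox15 (-1.17). Over the 6 settings that median ran from -0.77 to -0.68, and Alox15 from -1.17 to -0.64. Against them, Il5ra of the same list was detected in marrow labelled Dnmt2-/- only, at least 1.68-fold higher. The summed signal of the eosinophil markers detected on either array was 25889.6 in marrow labelled Dnmt2-/- and 34246.7 in marrow labelled wild type. All such sums here are of deposited signals, with background included and without normalization. Over all named genes detected on either array, the sum was 7398010.4 in marrow labelled Dnmt2-/- and 7004875.6 in marrow labelled wild type. As reported, all 8 detected primary granule genes of neutrophils were below 0 in their brightest probe, with a median of -0.11. The lowest ratio was -0.65 for Mgst2 and the highest -0.06 for Mpo. Mpo probes detected on both arrays ran from -0.2 to 0.34, and Gfi1 was at 0.15 under median scaling. The summed signal of the primary granule genes was 22480.3 in marrow labelled Dnmt2-/- and 24649.0 in marrow labelled wild type. The part of these cells in the Hdc value was not tested. In whole marrow, fewer cells of a type and less RNA per cell cannot be told apart.

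**Figure D2:**
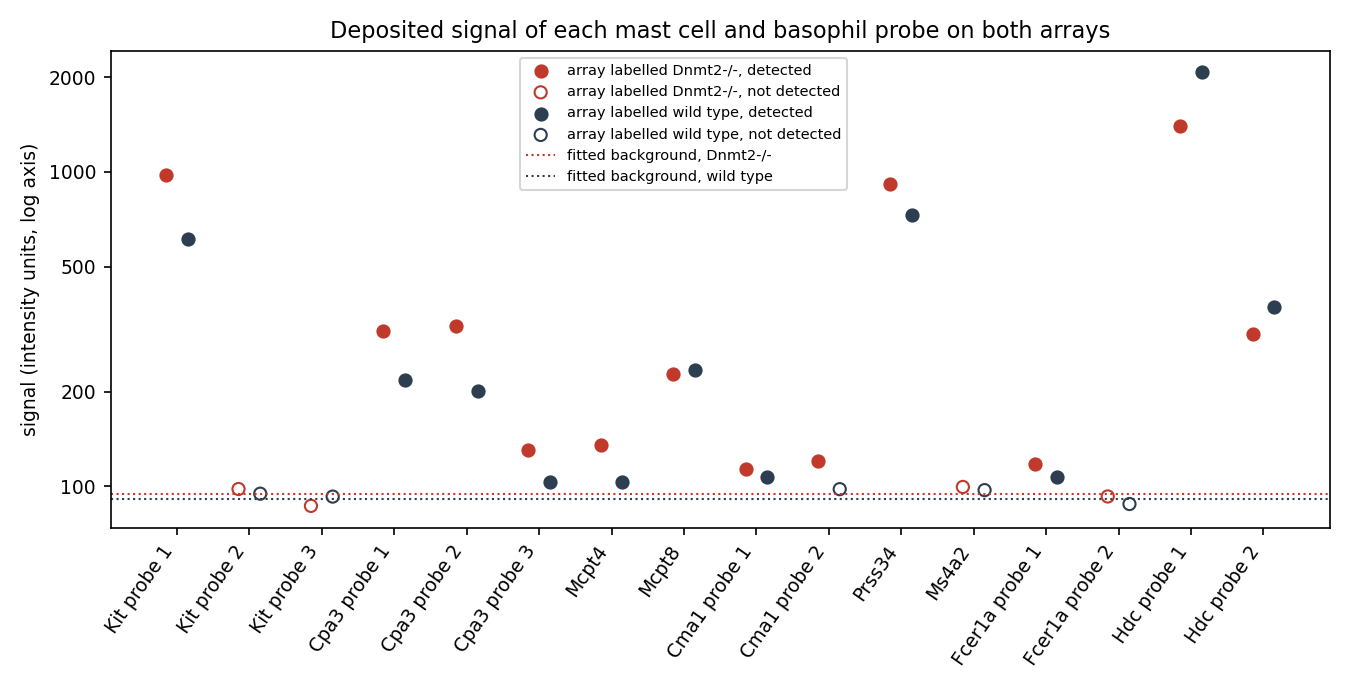
Deposited signal (log axis) of the 16 probes of the 9 genes in marrow labelled Dnmt2-/- (red) and marrow labelled wild type (dark), with open circles for probes not detected and dotted lines for the fitted backgrounds of 94.9 and 90.9 of these arrays. All 3 Cpa3 probes are brighter and both Hdc probes dimmer in marrow labelled Dnmt2-/-, and Ms4a2, the second Fcer1a probe and 2 Kit probes lie at background.

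The direction of the members held over most ways of processing. Over 9 settings, Kit (0.46 to 0.67), Cpa3 (0.27 to 0.63), Mcpt4 (0.26 to 0.93), Prss34 (0.13 to 0.29) and Fcer1a (0.03 to 0.24) were above 0 in each, and Mcpt8 (-0.44 to -0.17) and Hdc (-0.7 to -0.65) below 0 in each. Cma1 changed side in 1 setting. Of the 9, the 2 that alter the detection filter leave the ratio of a detected member as it is. The mean over probes can move only Cpa3 and Hdc, which had more than 1 probe detected on both arrays. Median scaling moved the median of all genes to 0.14. Relative to that median, Kit was at 0.52, Cpa3 at 0.49, Mcpt4 at 0.79 and Hdc at -0.81 under median scaling.

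**Figure D3:**
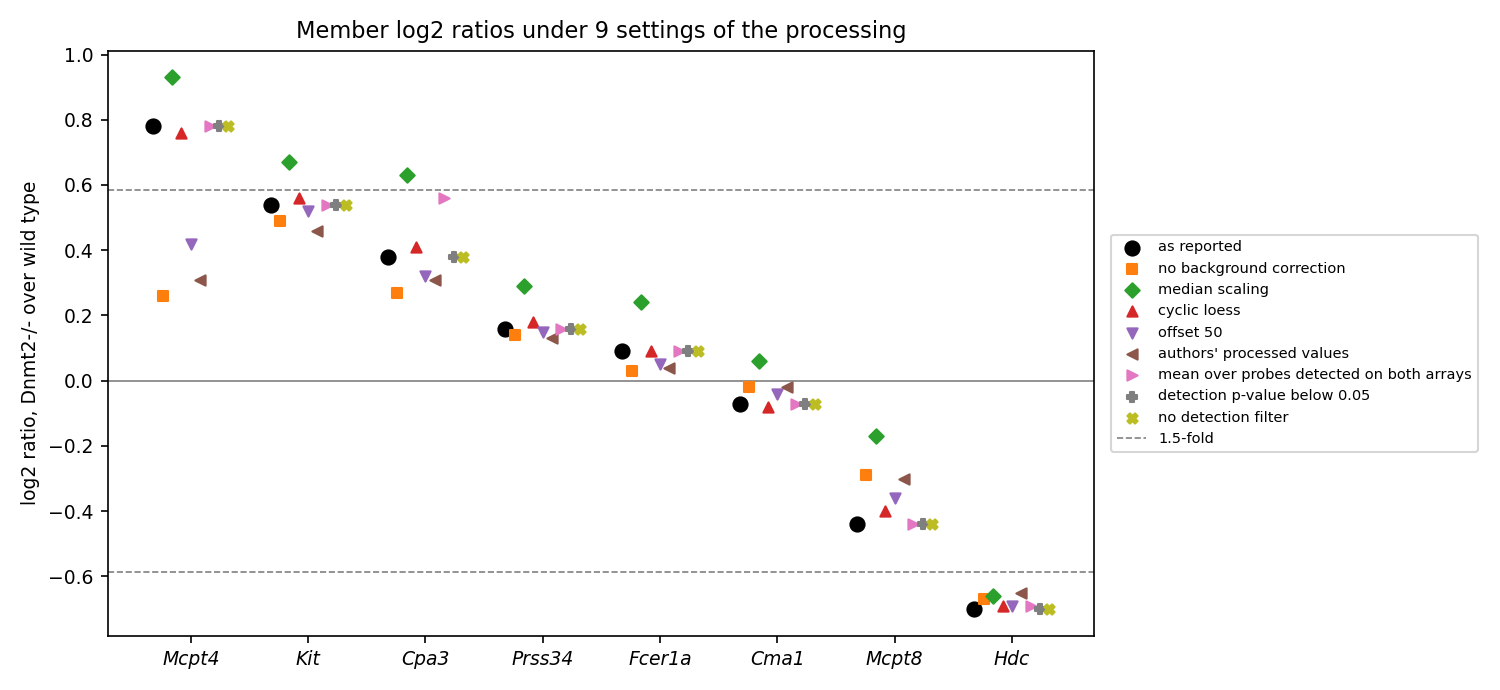
Log2 ratio of Dnmt2-/- over wild type for the 8 detected members (horizontal axis) under 9 settings of the processing (marker shape and colour), with dashed lines at 1.5-fold. Hdc lies below the lower line in each setting, and Mcpt4 lies from 0.26 to 0.93, on both sides of the upper line.

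Several members sit beside other protease genes. In the order of the mouse annotation on chromosome 14, Cma1, Mcpt4 and Mcpt8 lie in a run of 15 protease genes that ends with the granzymes, and 6 of the 15 were detected on both arrays. These were the 3 members, Cma2, the cathepsin G gene Ctsg and Gzmn. Cma2, which neighbours Cma1 and was singled out after its value was seen, had 153.9 in marrow labelled Dnmt2-/- and 104.8 in marrow labelled wild type, a ratio of 1.08 (2.11-fold higher) that ran from 0.41 to 1.26 over the 6 settings. Ctsg, a protease gene of neutrophils and mast cells, had 2470.0 in marrow labelled Dnmt2-/- and 2557.2 in marrow labelled wild type (log2 -0.10). Gzmn was near background, with 103.5 in marrow labelled Dnmt2-/- and 104.6 in marrow labelled wild type (log2 -0.40). The run therefore did not move as a block, with ratios from -0.44 for Mcpt8 to 1.08 for Cma2. The mucosal mast cell proteases Mcpt1 and Mcpt2 were detected on neither array. These genes are related in sequence, and whether a probe also binds a neighbour's RNA was not tested. On chromosome 17, Prss34 leads a run of 5 protease genes, of which 4 had a named probe. Prss34 alone of these 4 was detected, and the tryptase gene Tpsb2 was at background, with 100.2 in marrow labelled Dnmt2-/- and 88.5 in marrow labelled wild type.

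**Figure D4:**
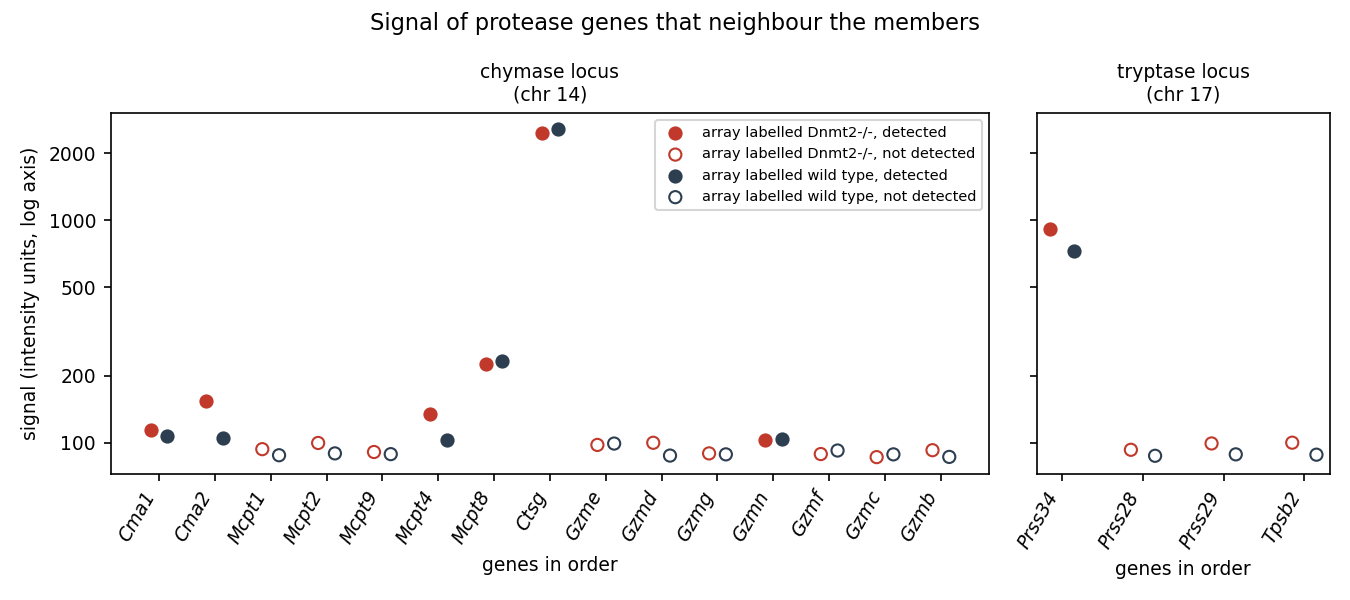
Deposited signal (log axis) of the protease genes around Cma1, Mcpt4 and Mcpt8 on chromosome 14 and around Prss34 on chromosome 17, in chromosomal order, in marrow labelled Dnmt2-/- (red) and marrow labelled wild type (dark); open circles were not detected. Cma2 and Mcpt4 are brighter in marrow labelled Dnmt2-/-, and most of the granzyme genes lie at background on both.

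Against their defining markers, the arrays held only part of a mast cell profile. Of 12 mast cell markers, 6 were detected on both arrays, all of them members, and 5 on neither, namely Tpsb2, Ms4a2, Slc18a2, Mrgprb1 and Mrgprb2. The tryptase gene Tpsab1 was detected in marrow labelled Dnmt2-/- only. Of the 6, 4 were above 0 and 2 below, with a median of 0.24 (0.15 to 0.43 over the 6 settings). The summed signal of the mast cell markers detected on either array was 3158.9 in marrow labelled Dnmt2-/- and 3314.4 in marrow labelled wild type. Hdc set the direction of that sum, which without Hdc was 1758.7 in marrow labelled Dnmt2-/- and 1243.8 in marrow labelled wild type. The largest part of that remainder was Kit, also a progenitor marker, with 975.0 in marrow labelled Dnmt2-/- and 613.1 in marrow labelled wild type. Of 11 basophil markers, 9 were detected on both arrays, with a median ratio of 0.09 (0.03 to 0.23 over the 6 settings) and a range from Hdc (-0.7) to Cpa3 (0.38). Their summed signal was 4600.3 in marrow labelled Dnmt2-/- and 4941.3 in marrow labelled wild type.

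Other genes of mast cell and basophil biology also went both ways. Among 17 detected genes of IgE receptor signalling, 6 were above 0 and 11 below, with a median of -0.03. As reported, only Pik3r1, the regulatory subunit of phosphoinositide 3-kinase, passed 1.5-fold, at 1.56-fold higher (log2 0.64), followed by Rabgef1 (0.58), a regulator of endosome traffic that restrains mast cell activation. Over the 6 settings Pik3r1 ran from 0.56 to 0.70, short of 1.5-fold in the authors' processed values, and Rabgef1 ran from 0.51 to 0.69. Rabgef1 passed 1.5-fold under median scaling and, at 0.61, under cyclic loess normalization. Pik3cd, at 0.59, passed it under median scaling. Prkcd (-0.42), a protein kinase C, and Fcer1g were the lowest. Among 7 detected genes of Kit signalling, 3 were above 0 and the median was -0.03, from Stat5a (-0.46) and the phosphatase gene Ptpn6 (-0.30) to the phosphatase gene Ptpn11 (0.31) and Pik3r1.

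Among 6 detected growth factor receptor genes, Il3ra, the receptor chain for the basophil growth factor interleukin 3, was 1.59-fold lower, with 152.6 in marrow labelled Dnmt2-/- and 168.6 in marrow labelled wild type (log2 -0.67). Csf2ra, its counterpart for GM-CSF, was 1.51-fold lower (log2 -0.60), while the chain they share, Csf2rb (0.43) and Il18r1 (0.40) were higher and close to background. Csf2rb2 of the same list, also close to background, went the other way (log2 -0.26). It had 106.7 in marrow labelled Dnmt2-/- and 104.9 in marrow labelled wild type. Il5ra, the receptor chain of eosinophils and their precursors, was detected in marrow labelled Dnmt2-/- only, at least 1.68-fold higher. Over the 6 settings its measured ratio ran from 0.23 to 0.90 and that of Csf2rb from 0.12 to 0.53. Il3ra ran from -0.67 to -0.35 and Csf2ra from -0.60 to -0.33, so neither of these passed 1.5-fold in each.

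Among 10 detected transcription factor genes, 5 were above 0 and the median was 0.0. Spi1, which encodes the myeloid factor PU.1, was 1.70-fold lower (log2 -0.77) with 176.6 in marrow labelled Dnmt2-/- and 206.6 in marrow labelled wild type, and Stat5a followed at -0.46. Over the 6 settings Spi1 ran from -0.77 to -0.46 and Stat5a from -0.46 to -0.20. Tal1 (0.42) and Ikzf1 (0.15) were the highest. Gata2, looked up for the start site motif, had 334.8 in marrow labelled Dnmt2-/- and 267.6 in marrow labelled wild type (log2 0.12), and Gata1 had 354.4 in marrow labelled Dnmt2-/- and 300.2 in marrow labelled wild type (log2 0.01).

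In the remaining lists no gene detected on both arrays passed 1.5-fold in its brightest probe, except Ndst2 under median scaling. Log2 ratios over probes detected on both arrays ran from -0.62 to -0.27 for Alox5 and from -0.7 to 0.27 for Fcgr2b. A dimmer probe of each was thus more than 1.5-fold lower. Of 4 detected genes for histamine handling and lipid mediators, Ltc4s, the leukotriene C4 synthase gene, was at 0.16, Alox5ap at -0.08, the 5-lipoxygenase gene Alox5 at -0.34 and the histamine receptor gene Hrh2 at -0.48. Lta4h was detected in marrow labelled Dnmt2-/- only, at least 1.55-fold higher, and over the 6 settings its measured ratio ran from 0.26 to 0.88 and that of Hrh2 from -0.48 to -0.16. Of 4 other detected granule genes, Ndst2, an enzyme of heparin synthesis in mast cells, was the highest at 0.46, with 457.8 in marrow labelled Dnmt2-/- and 302.9 in marrow labelled wild type, and ran from 0.37 to 0.67 over the 6 settings. The granule proteoglycan gene Srgn and the protease-activating cathepsin gene Ctsc were both at -0.13, and Srgn lay on either side of 0 over the 6 settings (-0.13 to 0.02). Of 7 detected surface receptor genes, 4 were above 0, from Ptger3 (0.36) and Cd63 (0.28) at the top to Itga2b (-0.24) and Fcgr2b (-0.12) at the bottom. Fcgr2b lay on either side of 0 over the 6 settings (-0.12 to 0.14), and Ptger3 ran from 0.10 to 0.43.

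Kit, Cpa3 and Mcpt4 were higher on the array on which markers of other cells were higher too. Of 8 detected stem and progenitor markers, Kit among them, 7 were above 0, with a median of 0.26, a highest ratio of 0.83 for Myb, a progenitor transcription factor, and a lowest of -0.59 for Angpt1. Over the 6 settings the median ran from 0.16 to 0.48, Myb from 0.28 to 0.98 and Angpt1 from -0.59 to -0.16. Of 3 more markers detected on 1 array only, Cd48 was detected under the Dnmt2-/- label (a measured 1.48-fold higher as reported). Flt3 (at least 1.32-fold lower as reported) and Procr (at least 1.48-fold lower) were detected under the wild type label. Their measured log2 ratios over the 6 settings ran from 0.15 to 0.62 for Cd48, -0.59 to -0.19 for Flt3 and -0.63 to -0.17 for Procr. The summed signal of that list was 2821.5 in marrow labelled Dnmt2-/- and 2149.5 in marrow labelled wild type. Of 11 detected markers of erythroid progenitors, a stage that also carries Kit, 10 were above 0, with a median of 0.28, from Slc4a1 (-0.03) to the transferrin receptor gene Tfrc (0.88). Their summed signal was 45580.6 in marrow labelled Dnmt2-/- and 38007.6 in marrow labelled wild type.

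Mast cells also live in connective tissue, and markers of tissues that surround marrow had ratios above 0. All 9 detected cartilage markers were above 0 (median 1.48, Col11a2 at 0.11 to Col2a1 at 1.96), as were 9 of 11 bone markers (median 0.67, Bglap2 at -0.14 to Ibsp at 1.35). All 12 muscle markers were above 0 (median 0.87, Actc1 at 0.39 to Tnnc1 at 2.07; Actc1 lay between 0.19 and 0.64 and Tnnc1 between 1.00 and 2.28 in the 6 settings), and 7 of 10 fibroblast and connective tissue markers were (median 0.47, Pi16 at -0.62 to Lum at 1.30). Over the 6 settings the cartilage median lay between 0.66 and 1.69, the bone median between 0.56 and 0.82, the muscle median between 0.76 and 0.96 and the connective tissue median between 0.20 and 0.60. These medians thus stayed above 0, and the summed signals were higher too. The summed signal of the connective tissue list was 9231.8 in marrow labelled Dnmt2-/- and 5692.7 in marrow labelled wild type, that of cartilage 4271.9 in marrow labelled Dnmt2-/- and 1878.0 in marrow labelled wild type. For bone it was 47431.7 in marrow labelled Dnmt2-/- and 37162.9 in marrow labelled wild type, and for muscle 17772.5 in marrow labelled Dnmt2-/- and 9284.8 in marrow labelled wild type. The part of these tissues and of the progenitors in the values of Kit, Cpa3, Mcpt4 and Cma2 was not tested. Markers of other marrow cells had medians below 0: 8 of 9 detected monocyte and macrophage markers were below 0 (median -0.19, and -0.20 to -0.06 over the 6 settings, Adgre1 at -0.90 to Csf1r at 0.20), as were 10 of 11 megakaryocyte markers (median -0.21, Clec1b at -0.59 to Ppbp at 0.19). The summed signal of the monocyte and macrophage markers was 5950.4 in marrow labelled Dnmt2-/- and 6409.5 in marrow labelled wild type. That of the megakaryocyte markers was 13311.0 in marrow labelled Dnmt2-/- and 13088.0 in marrow labelled wild type. These sums are not normalized, and the sum over all genes was also higher under the Dnmt2-/- label.

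**Figure D5:**
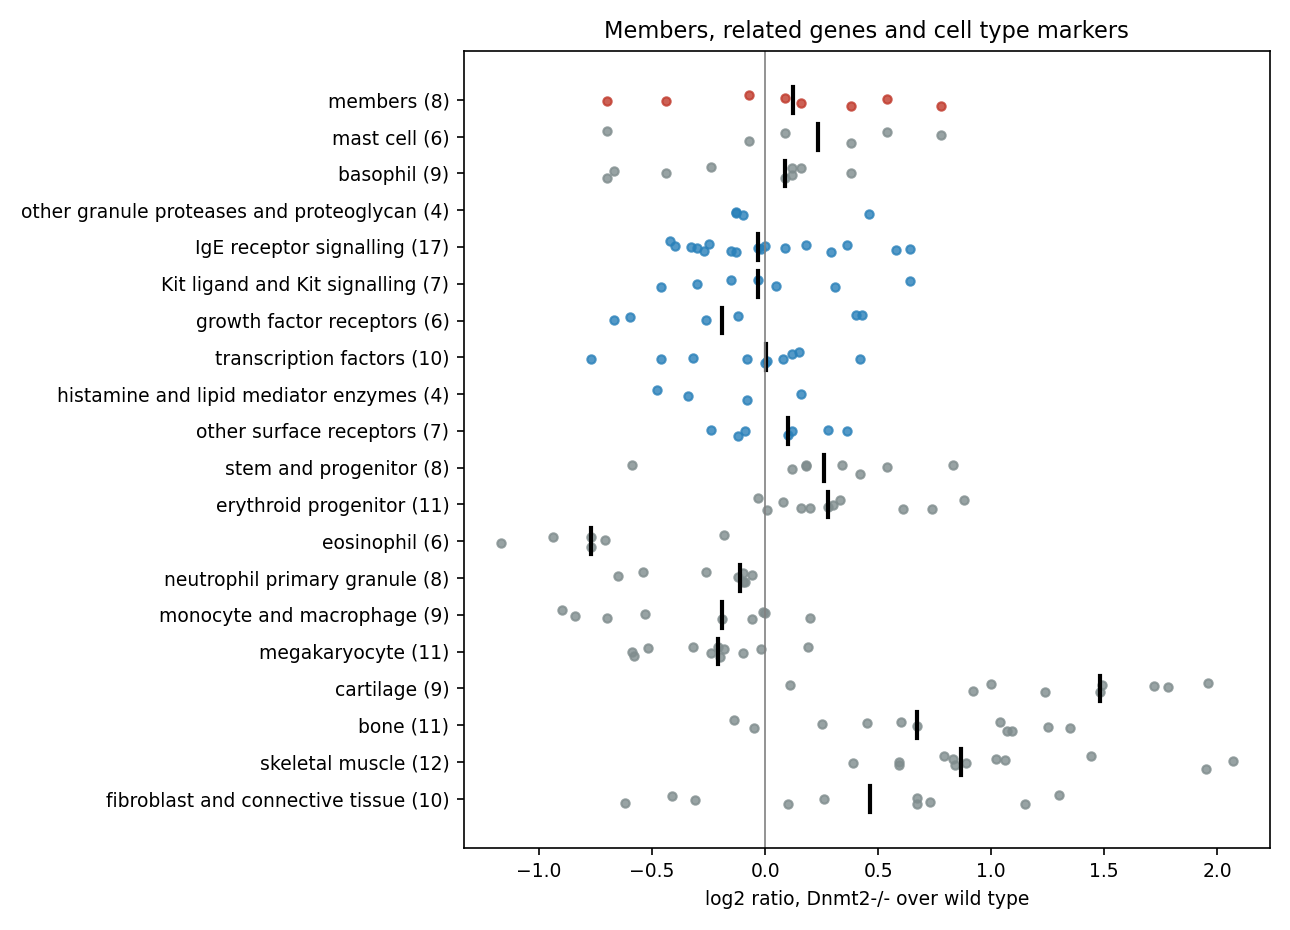
Log2 ratio of Dnmt2-/- over wild type for each gene detected on both arrays, by list, with the number of such genes in brackets and a black bar at the median of lists with 5 or more; members are red, related genes blue and cell type markers grey, and the vertical jitter has no meaning. The members lie on both sides of 0, the eosinophil markers below it and the cartilage and muscle markers above it.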

How the data were processed

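The authors deposited a signal intensity and a detection p-value for every probe, per the file headers. The intensities were taken as linear with background not subtracted, from their values. The lowest signal was 75.6 in marrow labelled Dnmt2-/- and 74.1 in marrow labelled wild type. In a second deposited table the authors had normalized the intensities, by a method that the sources used here do not give. It was linear and not centred (medians 101.1 for Dnmt2-/- and 101.8 for wild type) and served as an alternative. Its log2 ratios correlated with those used here in the same direction (Pearson r 0.949 over 16728 probes detected on both arrays). Per the labels' protocols, Trizol-extracted RNA was amplified to biotin-labelled cRNA.

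The normexp correction of limma 3.58.1 (R 4.3.3) was applied with the background inferred from the detection p-values and an offset of 16, followed by log2 and quantile normalization. The offset shrinks ratios of dim probes. Of all probes, 34885 had 1 gene symbol in the platform annotation, 18 had several and were left out, and 10378 were not named. The probe with the highest mean stood for a gene, detected at a detection p-value below 0.01. Where a probe was detected on 1 array only, the fold is a bound against the higher of its own value on the other array and the lowest value among detected probes there. Such a bound holds for the processing as reported only. Where the probe's own value was the higher, as for the other Cma1 probe and Cd48, the fold is the measured ratio and no lower limit. The steps were tested on simulated data in which only brighter genes were given known changes. That test does not cover dim members such as Mcpt4, Cma1 and Fcer1a. No median is given for lists of under 5 detected genes. Named in each list of related genes were the 2 highest and 2 lowest ratios and bounds of at least 1.5-fold, and in each marker list the highest and lowest. Gzmn, Cma2, Gata1, Gata2, Tpsab1, Pik3cd, Csf2rb2, Gfi1, Flt3, Procr, Cd48 and the genes called not detected were named outside this rule or after their values were seen. With 2 arrays, no likeness of pattern between genes was computed. The members and lists were chosen with earlier results of these data known. The 8 alternatives are in the closing section.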

Additional observations from a re-analysis of the deposited data

How the results depend on the processing

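The median ratio of the detected members ran from 0.09 to 0.26 over the 8 alternatives, against 0.13 as reported. The count of members at least 1.5-fold lower was 1 in each, namely Hdc. Beside it stood 1.08% (no background correction) to 5.33% (detection p-value below 0.05) of all genes. The count at least 1.5-fold higher was 1 as reported, 3 with median scaling (beside 13.7% of all genes), and 0 without background correction (1.91%), 0 with an offset of 50 (3.02%) and 0 in the authors' processed values (2.31%); the cause was not tested. For single members, 42 alternative values could differ from the one reported, and 39 of them moved by less than the SD between probes of a gene (0.29). The other 3 were all of Mcpt4, at 0.26 without background correction, 0.42 with an offset of 50 and 0.31 in the authors' values. That SD compares probes and not ways of processing. It is larger in size than the reported ratios of Prss34 (0.16), Fcer1a (0.09) and Cma1 (-0.07), so it is a loose mark for them. Mcpt8, at -0.44 as reported and -0.17 with median scaling, also stayed within it. Mcpt4, Cma1, Fcer1a and Ms4a2 lay close to background, which limits their ratios most. No paired analysis was possible because each genotype had 1 array, and no array could be left out.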
